A study of Mus musculus with 23 samples.

Results

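Capillary endothelial cells were 43699 of the 265025 cell barcodes in the 23 libraries of this single-cell RNA-seq study of the mouse brain, or 16.49%. A barcode, the tag that marks the RNA of 1 droplet, was counted as capillary when it passed a set of limits on unique molecular identifiers (UMIs, each 1 captured RNA molecule). The depth and quality limits were 500 genes and 800 UMIs as minimum and 10% mitochondrial UMIs as maximum, and 249715 barcodes met them. It also needed UMIs of at least 4 of the 8 endothelial genes Cldn5, Flt1, Ly6c1, Itm2a, Egfl7, Slco1a4, Ptprb and Pglyrp1, with a sum at least 3 times that of 8 genes of astrocytes, microglia, oligodendrocytes, pericytes and smooth muscle. Fewer than 3 UMIs of Plvap were allowed, a gene of fenestrated endothelium, and no UMI of 8 large-vessel genes (Gkn3, Bmx, Sema3g, Mgp, Fbln5, Vwf, Nr2f2 and Lrg1). The last condition was at least 1 UMI over Mfsd2a and Slc16a1. The cells were thus selected on the UMIs of these genes, whose levels are given only as a description. No gene of the rule was taken out before the fits over all genes below, so such genes can be among the counts of called genes. The 9 of them that are enriched in endothelium also entered the fits over endothelial-enriched genes. Genes of the rule are not named as results of these fits.

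Mice had received 45 mg/kg of an antibody conjugated to the fluorophore Alexa 647 into the tail vein, and brains were taken 24 hours later after perfusion. ATV-TfR, labelled DNP02_hIgG1_LALAPG_ATV35.23.2, carries a binding site for the transferrin receptor in its Fc part and was given to TfR mu/hu KI mice. ATV-CD98hc, labelled DNP02 LALAPG LLB2-10-8 monovalent, binds the CD98 heavy chain and was given to CD98hc mu/hu KI mice. The control IgG, DNP02_hIgG1_LALAPG, was given to C57BL/6 mice, so treatment and genotype changed together and cannot be told apart. All mice were 12 weeks old by the series' design text and 3.3 months old by the sample labels, and olfactory bulbs, cerebellum, pons and medulla had been removed. Cells of 1 male and 1 female were pooled, with 2 pools per treatment, and each pool was sorted by fluorescence into negative, low, medium and high bins. The gates were set on the ATV-TfR cells as tertiles of the positive cells and then used for every treatment. About 1% of live cells were fluorescent after control IgG, about 30% after ATV-TfR and about 20% after ATV-CD98hc, as the labels state. The negative bin of control IgG pool 1 was not analysed here. Actinomycin D and anisomycin, which block transcription and translation, were present during dissociation.

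Capillaries are the narrowest and most extensive vessels of the brain, and their endothelium is the main surface of the blood-brain barrier. Tight junctions seal the cells to each other, vesicle traffic is held low, in part by the lipid transporter Mfsd2a, and nutrients cross on dedicated carriers. The transferrin receptor, encoded by Tfrc, brings iron-loaded transferrin into these cells. The CD98 heavy chain, encoded by Slc3a2, pairs with light chains such as LAT1, encoded by Slc7a5, to exchange large neutral amino acids. Brain shuttle antibodies bind such receptors on the luminal side in order to be carried across.

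The markers of capillary endothelium are genes of the rule, so their shares were fixed by the selection and describe it without testing the label. Cldn5, the main claudin of the brain barrier, had a UMI in 99.89% of capillary barcodes and in 3.947% of non-endothelial ones. Slco1a4, an organic anion carrier of brain endothelium, had one in 99.31% and 2.79%. Mfsd2a had a UMI in 76% of capillary barcodes against 25.02% of non-endothelial barcodes, and Slc16a1, the lactate carrier MCT1, in 71.39% against 15.94%. Both were found together in 47.39% of capillary barcodes. Of the astrocyte genes in the rule, the water channel Aqp4 had a UMI in 3.217% of capillary and 60.43% of non-endothelial barcodes, and the connexin Gja1 in 13.47% and 67.39%. Median depth was 3195 UMIs per capillary barcode and 4035 per non-endothelial barcode. Tfrc had a UMI in 62.69% of capillary barcodes and 13.56% of non-endothelial barcodes, and Slc3a2 in 69.73% and 49.93%.

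At 2 of its limits the rule divided barcodes with similar levels. The 11010 barcodes with exactly 1 UMI over Mfsd2a and Slc16a1, just inside, had a median of 2870 UMIs, 385.4 CPM of Tfrc (UMIs of the gene per 1000000 UMIs) and 2791 CPM of Slco1a4. The 10426 barcodes with none, just outside, had a median of 2622 UMIs, 320.3 CPM of Tfrc and 2563 CPM of Slco1a4. Of the 110935 endothelial barcodes that met the earlier conditions, 54125 had no large-vessel UMI. The 20022 barcodes with a single such UMI had a median of 3676 UMIs and 422.5 CPM of Tfrc, against 459.3 CPM in the capillary set. The capillary set is thus the part of the endothelium with a Mfsd2a or Slc16a1 UMI and without a detected large-vessel transcript, 39.28% of all endothelial barcodes. Deeper barcodes had more chances to enter it by the first condition and to leave it by the second. Other limits fell among few barcodes: 46 had UMIs of exactly 4 of the 8 endothelial genes, at 1769 CPM of Slco1a4, and 28 had 3, at 444.2 CPM, while 2 had 2 UMIs of Plvap and 3 had 3. A further 50533 endothelial barcodes were assigned to no zone, 11043 to an arterial and 5660 to a venous class. Among the capillary barcodes, 256 barcode sequences (0.5893%) were found in more than 1 library.

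The libraries held between 2 and 8034 capillary barcodes. The 15 libraries with at least 20 capillary barcodes entered the gene tests: the low, medium and high bins of both pools for both ATV antibodies, and control IgG negative (pool 2) and low. Their median depth ran from 2092 to 4312 UMIs per capillary barcode. The negative bins of ATV-TfR held 4 and 2 capillary barcodes and those of ATV-CD98hc held 11 and 8, under this minimum of 20, so no gene test of an ATV negative bin was run. P-values of the gene tests measure the spread between the 2 pools of a group, estimated over all groups together. Control IgG negative has 1 library, which is assumed to vary like the other groups.

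Capillary cells made up a larger share of the endothelium with each step up in fluorescence in both ATV groups. In the ATV-TfR pools they were 2.878% and 2.222% of endothelial barcodes in the negative bins, 10.11% and 7.309% in the low, 29.11% and 25.57% in the medium and 43.23% and 41.46% in the high bins. Both pools rose at every step and no value of a bin overlapped that of its neighbour. With every barcode thinned to 1000 UMIs the negative bins had 8.738% and 5.263% and overlapped the low bins at 9.948% and 7.308%, so at equal depth the first step was small beside the spread between pools, while the medium bins at 23.84% and 22.25% and the high bins at 41.63% and 40.92% still lay apart. The group mean went from 2.55% ± 0.464 (SD, n = 2) to 42.34% ± 1.25 (SD, n = 2). In the ATV-CD98hc pools the share was 12.36% and 12.7% in the negative bins, 29.37% and 33.74% in the low, 36.52% and 44.36% in the medium, and 38.61% and 45.09% in the high bins. Here the medium and high bins overlapped, and the largest step of the unthinned shares lay between the negative and low bins. Thinned to 1000 UMIs the ATV-CD98hc means were 12.72% ± 0.62, 24.66% ± 4.07, 36.88% ± 5.08 and 43.04% ± 4.91 from negative to high (SD, n = 2), so at equal depth the first 2 steps were of like size. In the negative bins the shares rest on few cells, with exact 95% binomial intervals of 0.79% to 7.2% and 0.27% to 7.8% for ATV-TfR and 6.33% to 21% and 5.65% to 23.5% for ATV-CD98hc. The intervals cover counting error only.

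As a share of all kept barcodes the contrast between the antibodies was wider. Capillary cells were 0.2724% and 0.1219% of the ATV-TfR low bins, 5.862% and 4.902% of the medium bins and 41.05% and 39.83% of the high bins. In the ATV-CD98hc libraries they were already 4.287% and 4.926% of the low bins and 32.03% and 39.06% of the medium bins, close to the 36.2% and 42.91% of the high bins. With gates shared by all treatments, the high bins of ATV-TfR mice gave 8026 and 7015 capillary barcodes, the medium bins 940 and 757 and the low bins 44 and 22. In ATV-CD98hc mice 5698 and 8034 were in the medium bins and 3776 and 5738 in the high bins. Each bin was loaded as a separate library, so these numbers are not the share of all capillary cells of a brain that fell in a gate.

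The arterial class was smallest in the high bins of both ATV antibodies. In the ATV-TfR pools it was 43.17% and 44.44% of endothelial barcodes in the negative bins, 45.75% and 49.17% in the low, 19.11% and 21.28% in the medium and 7.303% and 7.689% in the high bins. It was thus higher in the low than in the negative bin of both pools, as was the capillary share, and lower at each later step. The endothelial total includes Plvap-high barcodes. These were 44 of 139 and 24 of 90 in the negative bins but 18 of 435 and 19 of 301 in the low bins. Arterial barcodes were 60 and 40 in the negative and 199 and 148 in the low bins. Leaving Plvap-high barcodes out reverses the arterial order of these bins, while the capillary share still rises. In the ATV-CD98hc pools it was lower at every step, from 51.69% and 44.44% in the negative bins and 18.71% and 19.03% in the low to 8.897% and 7.379% in the high bins. Venous cells stayed few in both ATV groups, between 2.125% and 5.614% of endothelial barcodes.

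**Figure D1:**
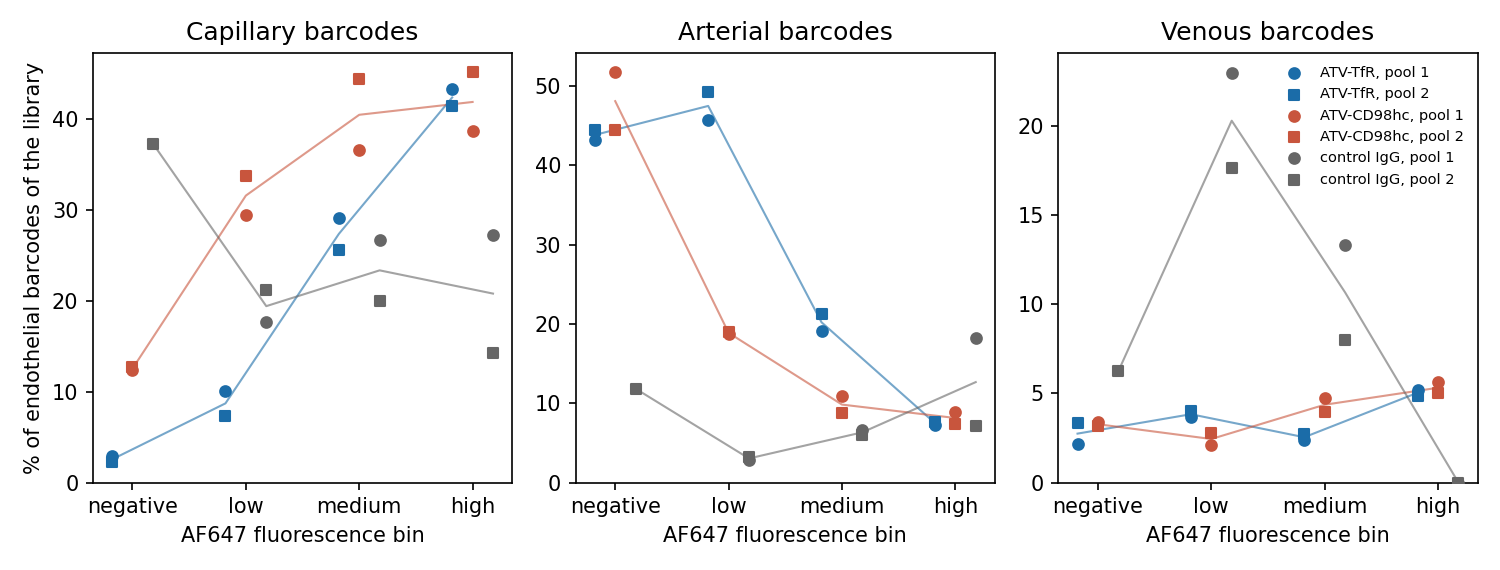
Share of endothelial barcodes (%) in the capillary, arterial and venous classes, by fluorescence bin and treatment; each point is 1 library and lines join the bin means. The capillary share of the ATV-TfR pools rises from 2.878% and 2.222% in the negative bins to 43.23% and 41.46% in the high bins, while the arterial share is lowest in the high bins.

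The rise was tested as a slope of the natural log odds of being capillary per bin, with an exact two-sided permutation of bin labels over libraries and adjustment over 7 trends. The slope was 1.09 in ATV-TfR (exact permutation p = 0.00079, adjusted 0.0028), the smallest p the 8 libraries allow, and 0.51 in ATV-CD98hc (exact permutation p = 0.0032, adjusted 0.0056). Against arterial cells the log ratio rose by 1.53 per bin (exact permutation p = 0.00079, adjusted 0.0028) and 0.97 per bin (exact permutation p = 0.0016, adjusted 0.0037). Against venous cells the ATV-TfR slope was 0.81 (exact permutation p = 0.0071, adjusted 0.01), while the ATV-CD98hc slope of 0.22 did not pass (exact permutation p = 0.23, adjusted 0.26). After thinning to 1000 UMIs, leaving out 11 to 344 shallower barcodes per library, the slopes were 0.77 and 0.54 and the ATV-CD98hc slope against venous cells passed at 0.48 (exact permutation adjusted p = 0.034). Without the negative bins, which hold the fewest cells, the ATV-TfR slope was 1.02 (exact permutation p = 0.022, adjusted 0.078). The ATV-CD98hc slope was then 0.22 (exact permutation p = 0.089, adjusted 0.12), and neither passed. For ATV-TfR this p is the smallest that the 6 libraries allow, so not passing does not show that the trend rests on the negative bins. The bins of a pool share its animals, which the permutation over libraries does not use. With labels permuted within pools, the slopes of the capillary share had an exact permutation p of 0.0035 in both ATV groups (adjusted 0.0061). That is the smallest p this design allows. With 1 pool the smallest exact permutation p is 0.083.

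The control IgG libraries did not show this order. Capillary cells were 37.28% of the endothelium in the negative bin, 17.65% and 21.15% in the low, 26.67% and 20% in the medium and 27.27% and 14.29% in the high bins. The medium and high bins held only 8, 10, 3 and 2 capillary barcodes. The slope of -0.13 did not pass (exact permutation p = 0.43, adjusted 0.43), and it was 0.33 in pool 1 alone and -0.39 after thinning to 1000 UMIs (exact permutation adjusted p = 0.057). Barcodes of female cells gave -0.47 (exact permutation adjusted p = 0.0067) and those of male cells 0.46 (exact permutation adjusted p = 0.3). Venous cells were 22.94% and 17.64% of the endothelium in the control IgG low bins, against 6.246% in the negative bin.

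The dosed receptors came next. Tfrc was low in capillary cells of ATV-TfR mice in the low, medium and high bins. Its level was 43.96 and 154.6 CPM in the low bins (6 and 11 UMIs), 129.7 and 153.2 CPM in the medium and 249.8 and 274.1 CPM in the high bins. In ATV-CD98hc mice Tfrc was 317.6 and 350.4 CPM in the low, 676.8 and 497.8 CPM in the medium and 737.6 and 542.7 CPM in the high bins. Capillary cells of control IgG mice had 556.9 CPM in the negative bin and 624.4 and 726.7 CPM in the low bins. Every ATV-TfR library lay below every library of the other groups.

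Slc3a2 showed the mirror image. It was 240.7 and 231.3 CPM in the ATV-CD98hc low bins, 252.6 and 263.1 CPM in the medium and 266.5 and 381.1 CPM in the high bins. In ATV-TfR mice it was 307.7 and 379.5 CPM in the low, 522.9 and 541.5 CPM in the medium and 669.4 and 708.1 CPM in the high bins. In control IgG mice it was 504.3 CPM in the negative bin and 631.3 and 557.8 CPM in the low bins. At the medium and high gates the ATV-CD98hc libraries lay below the ATV-TfR libraries of the same gate and below all control IgG libraries.

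Over whole pools, Tfrc was 237.3 and 263.9 CPM after ATV-TfR, 680.5 and 507.7 CPM after ATV-CD98hc and 635.3 and 614 CPM after control IgG. The log2 fold change of ATV-TfR against control IgG was -1.21 ± 0.22 (SE, n = 2 pools each). It did not pass in edgeR's quasi-likelihood test over 15684 genes (adjusted p = 0.084), in which 0 genes (0%) passed. DESeq2 gave an adjusted p of 1.4e-06 for the same gene. Slc3a2 was 257.3 and 310.4 CPM after ATV-CD98hc, 653.6 and 693.8 CPM after ATV-TfR and 631.4 and 523.2 CPM after control IgG. Its log2 fold change of ATV-CD98hc against control IgG was -0.97 ± 0.23 (SE, edgeR adjusted p = 1, DESeq2 0.035). The values of the treated pools did not overlap those of the other pools for either gene. How many of all genes were separated in this way was not counted.

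In the bins tested together, Tfrc was lower in the ATV-TfR high bins than in the ATV-CD98hc high bins by a log2 fold change of -1.24 ± 0.23 (SE, edgeR adjusted p = 0.018). Slc3a2 was higher there by 1.11 ± 0.21 (SE, edgeR adjusted p = 0.017). Neither call held without ATV-TfR pool 1 (edgeR adjusted p = 0.47 and 0.41), and that of Slc3a2 also ended without ATV-TfR pool 2 (0.16) or ATV-CD98hc pool 1 (0.07). Each receptor was thus lowest in the mice whose antibody binds it, and these are also the mice whose receptor gene is the mu/hu knock-in. Reads were mapped to a mouse build, so a knock-in transcript with human sequence, the antibody and the genotype cannot be told apart as sources of this difference.

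**Figure D2:**
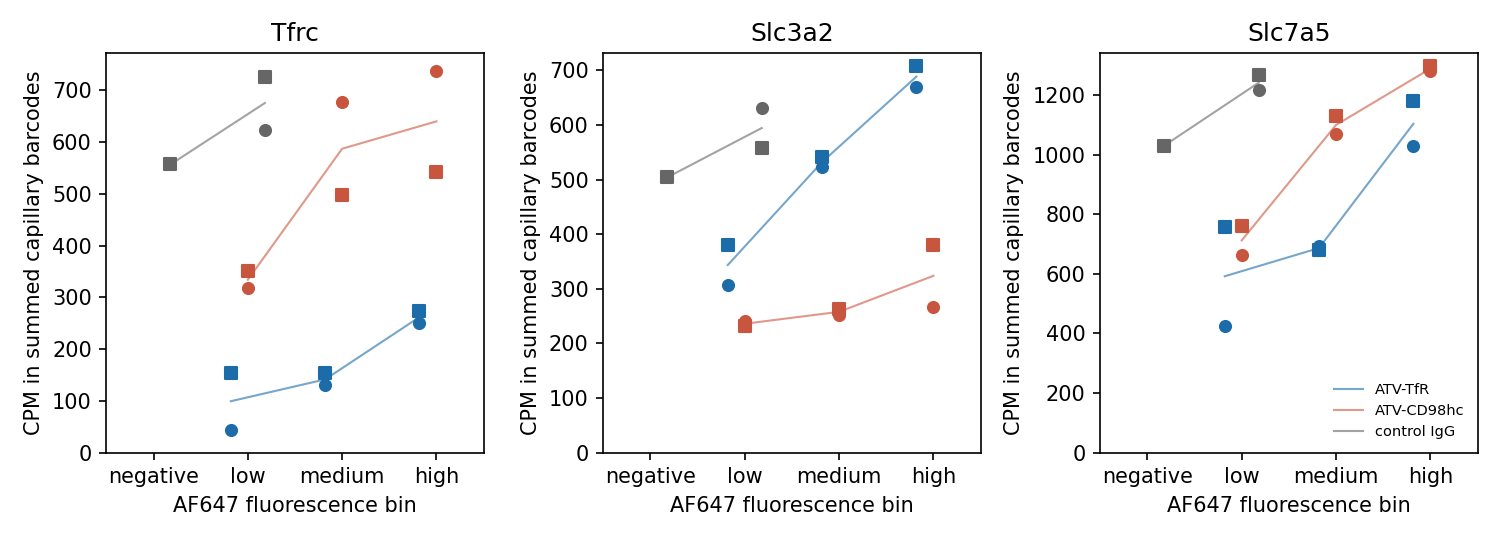
Levels of Tfrc, Slc3a2 and Slc7a5 (CPM) in capillary barcodes of each library, by bin and treatment; each point is 1 library with at least 20 capillary barcodes. Tfrc stays between 43.96 and 274.1 CPM in ATV-TfR libraries and between 317.6 and 737.6 CPM in ATV-CD98hc libraries.

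Slc7a5, the main CD98 light chain of brain endothelium, had higher levels in the high than in the low bins of both ATV antibodies. In ATV-CD98hc mice it was 663.1 and 761.8 CPM in the low, 1069 and 1131 CPM in the medium and 1280 and 1298 CPM in the high bins. In ATV-TfR mice it was 424.9 and 759.1 CPM in the low, 692.3 and 681.3 CPM in the medium and 1028 and 1180 CPM in the high bins. Control IgG mice had 1031 CPM in the negative bin and 1216 and 1268 CPM in the low bins, above the low bins of both ATV antibodies, a difference that was not tested. From the low to the high bin it rose by 1.38 ± 0.24 in ATV-TfR and 1.09 ± 0.21 in ATV-CD98hc mice over all genes (log2, SE, edgeR adjusted p = 0.001 and 0.00082), beside the fall of astrocyte RNA described below. Relative to the endothelial-enriched genes defined below, these changes were 0.35 and 0.30 and not called (edgeR adjusted p = 0.48 and 0.44). The difference between the ATV-TfR and ATV-CD98hc high bins was -0.18 ± 0.21 in log2 (SE, edgeR adjusted p = 1). Over pools, Slc7a5 gave 0.04 ± 0.23 (SE, edgeR adjusted p = 1) for ATV-CD98hc against control IgG. Slc7a6 and Slc7a7, light chains for cationic and neutral amino acids, stayed at or below 8.647 and 17.75 CPM in all ATV-CD98hc libraries.

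Next, capillary cells of the high bin were compared with those of the medium bin of the same treatment. In ATV-TfR mice the high bin had less RNA of genes that astrocytes express and more of genes that endothelium expresses. The test over 13889 genes called 3869 of them (27.9%): 1670 higher (12%) and 2199 lower (15.8%). Of the lower genes, 2185 had a higher level in non-endothelial barcodes of the study, as had 7625 of the 13889 genes tested. The same 7625 genes are the base for such counts in the other bin comparisons below. F3, tissue factor, which astrocytes express strongly, went from 261.8 and 275.8 CPM in the medium bins to 11.35 and 6.044 CPM in the high bins. Hes5, a Notch target, went from 96.92 and 144.8 CPM to 4.95 and 2.403 CPM. The astrocyte cystine and neutral amino acid carriers Slc7a11 and Slc7a10, both CD98 light chains, fell by 4.59 and 4.34 on the log2 scale (edgeR adjusted p = 2e-07 and 1e-06). Slc7a10 was 184.9 and 225.4 CPM in the medium bins and 11.28 and 5.781 CPM in the high bins.

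Summed astrocyte markers describe the astrocyte RNA in the capillary barcodes, but where the sum is low most of it is Apoe. In control IgG pool 1 Apoe was 1483 CPM, with Cpe next at 92.46 CPM and Slc1a2 at 11.89 CPM. A low sum thus does not give the level of the other markers. The summed level of 8 astrocyte markers (Slc1a2, Slc1a3, Clu, Mt3, Slc4a4, Apoe, Cpe and Aldoc) was 13050 to 15930 CPM in the ATV-TfR low bins, 11610 to 13590 CPM in the medium and 1719 to 2342 CPM in the high bins. It was 11180 to 11830 CPM in the ATV-CD98hc low bins, 2014 to 2821 CPM in the medium and 1429 to 1804 CPM in the high bins. In control IgG it was 5232 CPM in the negative bin and 1273 to 1630 CPM in the low bins. Non-endothelial barcodes had 29920 CPM. All 8 markers were called lower in ATV-TfR high against medium, with a median log2 fold change of -3.65. Microglia markers gave 94.84 to 102.4 CPM and 96.23 to 187.2 CPM in the high and medium bins, with 0 of 8 called. Oligodendrocyte markers gave 26.39 to 34.87 CPM and 91.06 to 111.7 CPM, with 3 of 6 called lower. Red blood cell markers (haemoglobin genes and Alas2) were at 1.679 to 1.725 CPM in the medium and 325.3 to 431.8 CPM in the high bins, with 0 of 5 called. They varied widely elsewhere too, from 0 to 3403 CPM in the control IgG low bins and from 14.11 to 1019 CPM in the ATV-CD98hc low bins. Pericyte markers went from 361 to 396 CPM in the medium to 505.6 to 581.2 CPM in the high bins, with 1 of 7 called higher and 2 lower. None of the 8 astrocyte markers was at 0 in any of the 15 libraries. CPM are shares of all RNA of a library, whatever cell it came from. The median log2 fold change of 411 endothelial-enriched genes (at least 10 CPM and at least 10 times the non-endothelial level) was 0.668, against 0.149 over all genes, and 0.666 over the 402 of them that are no genes of the selection rule. The part of the RNA of these other cells in each endothelial change below was not tested.

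**Figure D3:**
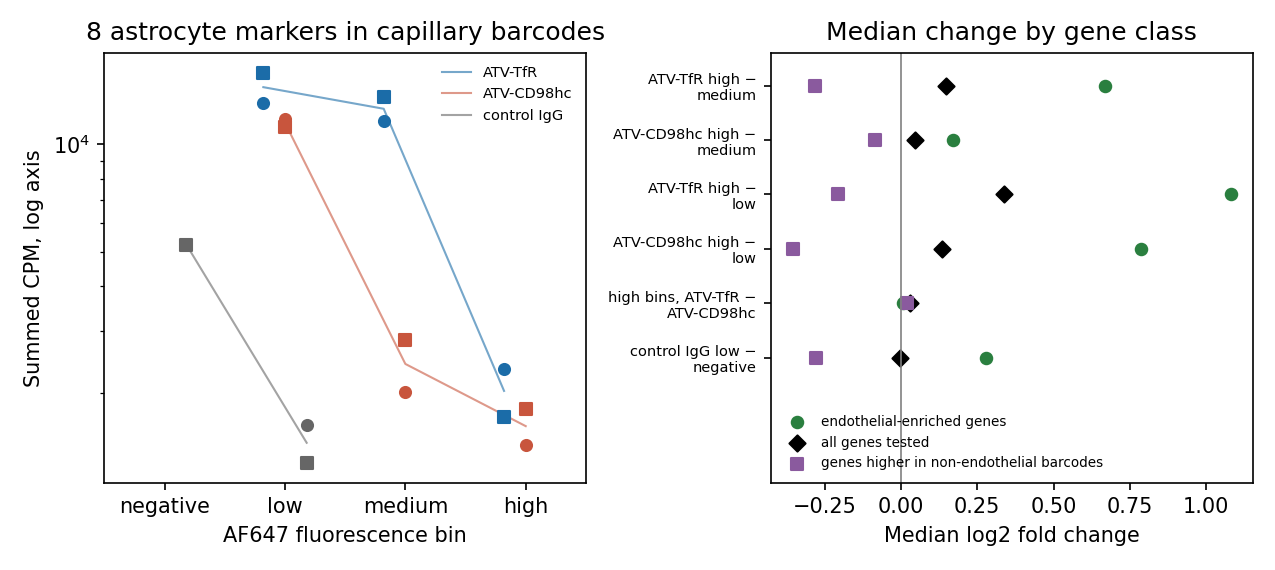
Left, summed level (CPM, log axis) of 8 astrocyte markers in capillary barcodes of each library by bin; right, median log2 fold change of all genes, endothelial-enriched genes and genes higher in non-endothelial barcodes in each bin comparison. Markers sit at 11610 to 13590 CPM in ATV-TfR medium bins and at 2014 to 2821 CPM in ATV-CD98hc medium bins.

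Depending on the setting, the ATV-TfR count changed widely. It was 6199 with the pool as a replicate block (bins of a pool share their animals), 1658 without pool 1 and 1364 without pool 2. In the 54.86% to 88.83% of capillary barcodes per library without any UMI of the 8 other-cell genes it was 489. With RLE in place of TMM scaling, 372 genes rose and 2489 fell, the median shift of all genes between these scalings being -0.236. To compare endothelial genes with each other, a second fit, chosen after the data were seen, used the 411 endothelial-enriched genes alone, with library sizes and scaling from those genes. Values from it are called relative to endothelial genes below. Without the 9 rule genes among the 411, of which none was called relative to endothelial genes, it gave the same counts in every comparison except 16 in place of 15 in ATV-CD98hc high against low and 5 in place of 2 between the high bins.

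In that fit, 10 of 411 genes (2.43%) were called in ATV-TfR high against medium: 8 higher (1.95%) and 2 lower (0.487%). Rflnb, a regulator of actin and filamin, was 103.1 and 82.7 CPM in the medium bins and 290.3 and 279.5 CPM in the high bins. Its change relative to endothelial genes was 1.21 ± 0.23 (SE, edgeR adjusted p = 0.0185). Kctd10, an adaptor of a cullin ubiquitin ligase, rose by 0.87 and Net1, a RhoA exchange factor, by 0.83 (edgeR adjusted p = 0.026 for both). Slc39a8, a carrier of zinc, manganese and iron, rose by 0.76 and the intermediate filament gene Synm by 0.66. The secreted factor gene Ndnf rose by 0.72, the tropomyosin gene Tpm4 by 0.56 and C130074G19Rik by 0.78. Kctd10 was 47.94 and 57.51 CPM in the medium and 116.8 and 138.6 CPM in the high bins, and Net1 53.81 and 57.93 CPM against 125.7 and 136.8 CPM.

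Slc26a10, a member of the anion exchanger family, was the endothelial-enriched gene with the clearest fall. It was 131.1 and 129.3 CPM in the ATV-TfR medium bins and 60.67 and 58.6 CPM in the high bins. Its change was -1.53 ± 0.19 relative to endothelial genes (SE, edgeR adjusted p = 0.00074) and -0.87 ± 0.21 over all genes (SE, edgeR adjusted p = 0.005). Krtap28-13 fell by 0.99 relative to endothelial genes, while over all genes its change was -0.33 and not called (edgeR adjusted p = 0.28). Tfrc rose by 1.15 over all genes (edgeR adjusted p = 0.002) and was 0.48 ± 0.22 relative to endothelial genes (edgeR adjusted p = 0.44, with the replicate block 0.016). With the block 64 genes were called relative to endothelial genes, and 30 without either ATV-CD98hc pool. Without either ATV-TfR pool, which leaves its bins 1 library each, 0 were called.

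**Figure D4:**
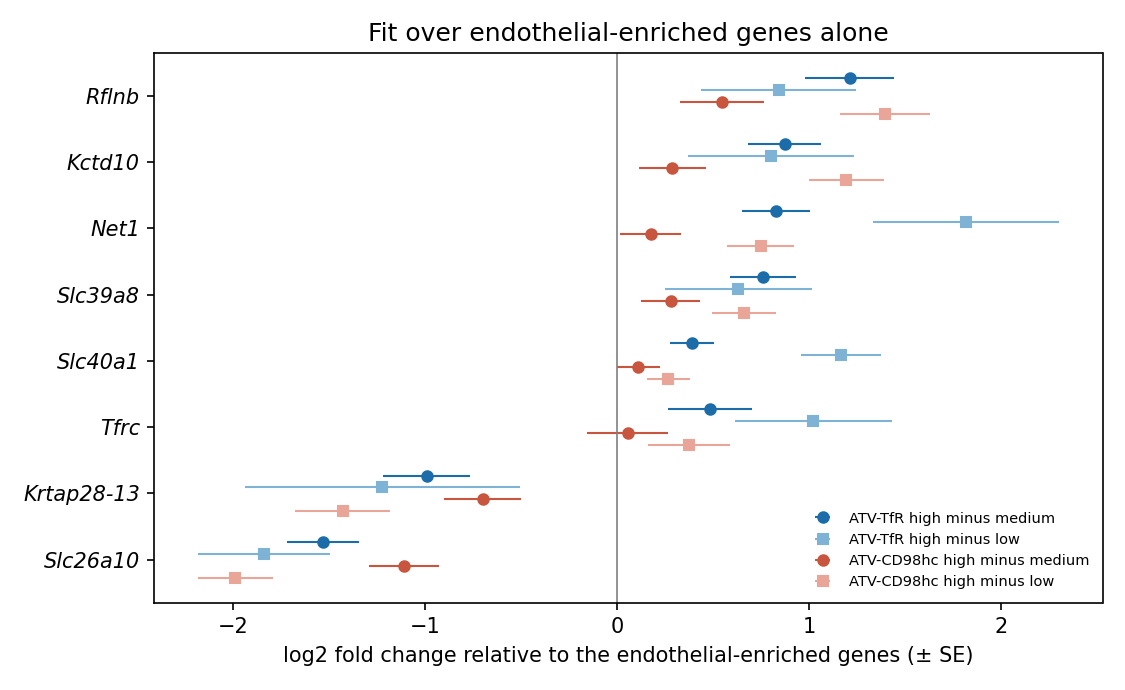
Log2 fold change ± SE of 8 endothelial-enriched genes in 4 comparisons of bins, from the fit over 411 endothelial-enriched genes. Slc26a10 lies below 0 in all 4, from -1.11 to -1.99, and Rflnb above 0, at 1.21 in ATV-TfR high against medium and 1.39 in ATV-CD98hc high against low.

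In ATV-CD98hc mice, high and medium capillary cells were more alike. Of 13889 genes, 840 (6.05%) were called, 8 higher (0.0576%) and 832 lower (5.99%), and 828 of the lower ones were higher in non-endothelial barcodes. Of the 8 astrocyte markers 6 were called lower. Oligodendrocyte markers were 87.04 and 52.94 CPM in the medium and 36.39 and 24.87 CPM in the high bins, with 1 of 6 called lower. Choroid plexus and ependymal markers were 1614 and 1197 CPM against 248.5 and 969.3 CPM, with 0 of 3 tested called. Named genes that rose were Meox1, a homeobox transcription factor, by 0.98, Ccnd1, cyclin D1, by 0.74, Cdkn2b, a cyclin kinase inhibitor, by 0.72, Myof, a membrane repair protein, by 0.66, Spaar by 0.65 and the Notch ligand Dll4 by 0.62 (edgeR adjusted p between 0.0033 and 0.044). The angiopoietin gene Angpt2, a regulator of vessel stability, rose by 0.95 (edgeR adjusted p = 0.02). Ccnd1 was 55.44 and 50.41 CPM in the medium and 84.58 and 79.17 CPM in the high bins, and Dll4 61.48 and 69.68 CPM against 93.17 and 94.32 CPM. In ATV-TfR mice these 7 genes rose too over all genes, from 0.76 for Dll4 to 1.72 for Meox1 on the log2 scale. There 281 of the 411 endothelial-enriched genes rose, with a median of 0.668 over the 411, so a rise is not particular to these 7. In ATV-CD98hc high against medium only Slc26a10 was called relative to endothelial genes (1 of 411, 0.243%, and 44 with the replicate block). It was 61.89 and 77.99 CPM in the medium and 29.36 and 38.02 CPM in the high bins, a change of -1.11 ± 0.18 (SE, edgeR adjusted p = 0.016), and was no longer called without either ATV-TfR pool. Without ATV-CD98hc pool 1, 2 genes were called. In barcodes without other-cell UMIs 190 genes were called over all genes. The medium and high bins of a pool varied together (correlation of deviations 0.92 over 8352 genes), which the fit without the block does not use.

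The wider step from the low to the high bin was compared next. In ATV-CD98hc mice 4616 genes (33.2%) were called, 2016 higher (14.5%) and 2600 lower (18.7%), of which 2592 were higher in non-endothelial barcodes. All 8 astrocyte, 7 of 8 microglia and 6 of 6 oligodendrocyte markers were among the lower genes. The endothelial-enriched median was 0.787 against 0.134 over all genes. In barcodes without other-cell UMIs 983 genes were called, and with RLE scaling 789 rose and 2973 fell, with a median shift of -0.217. A total of 15 of 411 (3.65%) were called relative to endothelial genes, 78 with the replicate block. Those higher (11, 2.68%) were Rflnb (1.39), Kctd10 (1.19), C130074G19Rik (1.18), the junction protein gene Cgnl1 (0.96), Synm (0.91), the junction gene Jcad (0.79), Akr1c14 (0.75), Net1 (0.75), Slc39a8 (0.66), Ahnak (0.66) and Tpm4 (0.62). Cgnl1 was 153.4 and 151.8 CPM in the low, 430.6 and 323.6 CPM in the medium and 501.7 and 377.9 CPM in the high bins. Jcad was 354.5 and 348.1 CPM, then 899.6 and 670.2 CPM, then 1037 and 764.2 CPM.

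Those lower (4, 0.973%) were Slc26a10, Krtap28-13 (-1.43), Cited4, a transcriptional coactivator (-0.97), and the interferon-induced antiviral gene Rsad2 (-0.81). Slc26a10 was 97.84 and 85.19 CPM in the low bins against 29.36 and 38.02 CPM in the high bins, a change of -1.99 ± 0.2 (SE, edgeR adjusted p = 6e-05). Rsad2 was 79.18 and 89.19 CPM against 71.68 and 70.3 CPM, and over all genes its change was -0.01 (edgeR adjusted p = 0.97). The changes of Krtap28-13 and Cited4 over all genes, -0.64 and -0.17, were not called either (edgeR adjusted p = 0.058 and 0.61), while that of Slc26a10 was -1.19 (edgeR adjusted p = 0.00039). Without either ATV-TfR pool, which shares in the estimate of the spread, 7 genes were called relative to endothelial genes, and 25 without ATV-CD98hc pool 2.

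In ATV-TfR mice the low bins held 44 and 22 capillary barcodes, and 2119 genes (15.3%) were called against them, 1082 higher (7.79%) and 1037 lower (7.47%). Of the lower genes 1022 were higher in non-endothelial barcodes. For 40 of the higher genes the low bins had no UMI, where 3 UMIs would be 14.4 CPM. The call rested on both pools: 515 genes passed without pool 1, 690 without pool 2 and 31 in barcodes without other-cell UMIs. With RLE scaling 350 rose and 1158 fell, with a median shift of -0.36. Called relative to endothelial genes were 3 of 411 (0.73%), 21 with the replicate block, 11 without either ATV-CD98hc pool and 0 without either ATV-TfR pool. The Rac exchange factor gene Tiam1 rose by 1.68 (51.28 and 28.11 CPM in the low, 209.8 and 213.3 CPM in the high bins). The capillary barcodes of the low bins held 136502 and 71140 UMIs in all, so these low levels of Tiam1 rest on few UMIs. Slc40a1, ferroportin, the iron exporter, rose by 1.17 ± 0.21 (SE, edgeR adjusted p = 0.028). Slc26a10 fell by 1.84, from 146.5 and 126.5 CPM in the low bins, but its change over all genes was -0.81 and not called (edgeR adjusted p = 0.12).

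Groups of genes fixed as lists are given next by role, with counts out of the members tested in ATV-TfR high against medium, where 12% of all genes rose and 15.8% fell. Of the genes for iron handling, 3 rose and 3 fell of 14 (median 0.38). Slc40a1 was 179 and 183.9 CPM in the medium and 311.7 and 318 CPM in the high bins, a rise of 1.05 ± 0.16 (SE, edgeR adjusted p = 0.00012), and relative to endothelial genes 0.39 (edgeR adjusted p = 0.12). The ferritin heavy chain gene Fth1 had 1641 and 1725 CPM against 1837 and 1881 CPM (edgeR adjusted p = 0.21). Of the genes for antibody handling, 3 of 4 rose. Fcgrt, the neonatal Fc receptor that returns IgG from endosomes, was 537.7 and 550.3 CPM in the medium and 712.1 and 749.1 CPM in the high bins, a log2 fold change of 0.68 ± 0.24 (SE, edgeR adjusted p = 0.046). That call ended under RLE scaling (0.44, edgeR adjusted p = 0.19) and without either ATV-TfR pool. Its partner B2m rose by 0.52 (edgeR adjusted p = 0.032).

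Most junction, carrier and Wnt genes rose in that comparison, in which 281 of all 411 endothelial-enriched genes rose and 1 fell (273 and 1 of the 402 that are no rule genes). Of the junction genes 9 of 11 rose and none fell (median 0.6), with occludin, Ocln, at 252.8 and 243.5 CPM against 364.8 and 388.1 CPM. Among barrier carriers 11 of 14 rose and none fell (median 0.63). The cationic amino acid carrier Slc7a1 was 423.2 and 442.9 CPM against 626.9 and 642 CPM, and the glucose carrier Slc2a1 1371 and 1450 CPM against 1671 and 1884 CPM. Of the ABC efflux pumps 3 of 7 rose and 2 fell, with Abcb1a, P-glycoprotein, at 791.6 and 866 CPM against 1065 and 1150 CPM. The cholesterol exporter Abca1 fell from 84.85 and 92.35 CPM to 44.33 and 37.13 CPM. Wnt signalling, which keeps the barrier programme on, had 10 of 15 genes higher and none lower (median 0.59), among them the Wnt target Apcdd1 at 272.1 and 283.3 CPM against 442.1 and 458.7 CPM. These medians lie close to the 0.668 of all 411 endothelial-enriched genes. Only list members among the 411 were tested relative to endothelial genes, so Abca1 and others were not. None of those tested was called, and their medians were 0.02 for junction, 0.1 for carriers, 0 for ABC pumps and -0.02 for Wnt genes. The part of the lower astrocyte RNA of the high bin in these counts was not tested.

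Other groups ranged from mostly higher to none higher. VEGF and angiopoietin genes had 7 of 9 higher and 1 lower (median 0.7), with the VEGF receptor Kdr at 371.1 and 335.8 CPM against 627.7 and 583.3 CPM. Caveolar genes had 4 of 8 higher and 1 lower (0.52), endocytosis genes 7 of 16 higher (0.51), interferon genes 4 of 10 higher (0.52) and basement membrane genes 5 of 10 higher (0.5). Immediate early genes had 2 of 11 higher, the amino acid stress response 1 higher and 2 lower of 11, and leukocyte adhesion 2 higher and 1 lower of 4. Of other shuttle receptors 4 rose and 3 fell of 11. Basigin, Bsg, was the most abundant of these, at 19380 and 19590 CPM against 25540 and 26470 CPM (edgeR adjusted p = 0.081). Lysosomal genes had a median of -0.03, with 0 of 12 higher and 1 lower.

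Genes of the venous side had the highest median of these lists in ATV-TfR high against medium, 1.07, with 5 of 7 higher and none lower, against 0.27 and 2 of 9 higher on the arterial side. The glutamine carrier Slc38a5 rose by 1.37 ± 0.28 (SE, edgeR adjusted p = 0.0015), from 81.06 and 77.66 CPM to 176.2 and 167.5 CPM. The carbonic anhydrase gene Car4 rose by 1.02, from 858.8 and 742.2 CPM to 1385 and 1334 CPM. Its level in venous barcodes of the ATV-TfR high bins was much the same, 1334 and 1381 CPM. The arterial transcription factor gene Hey1 was 54.15 and 56.25 CPM against 47.86 and 46.1 CPM (log2 fold change 0.02, edgeR adjusted p = 0.95). The 3 endothelial-enriched members of the venous side had a median of 0.71 relative to endothelial genes and none was called. In ATV-CD98hc high against medium, where 8 of 13889 genes (0.0576%) rose, 1 arterial-side member rose, Dll4, and 0 of 7 venous-side members. In ATV-CD98hc high against low, 6 of 9 arterial-side genes rose (median 0.92) and 4 of 7 venous-side genes (0.64). In that comparison 9 of 11 junction genes (0.75), 12 of 14 carriers (0.86), 12 of 15 Wnt genes (0.75) and 9 of 10 basement membrane genes (0.81) rose, and 4 of 12 lysosomal genes fell, where 14.5% of all genes rose and 18.7% fell and 331 of the 411 endothelial-enriched genes rose (median 0.787). Relative to endothelial genes, where only list members among the 411 were tested, the medians were 0.05 for junction, 0.16 for carrier and 0.02 for Wnt genes. No tested member of these 3 lists was called.

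Named genes had different levels in the other vessel zones, given as a description because zone was set from expression. Slc26a10 was 45.25 CPM in capillary, 137.4 CPM in arterial and 22.73 CPM in venous barcodes of the control IgG negative library. In the ATV-TfR high bins it was 60.67 and 58.6 CPM in capillary, 171.5 and 169.1 CPM in arterial and 26.96 and 37.17 CPM in venous barcodes. Tfrc was 556.9 CPM in capillary, 192.3 CPM in arterial and 423.3 CPM in venous barcodes of the control IgG negative library, and capillary was highest in each library compared. Slc38a5 was 176.2 and 167.5 CPM in capillary, 54.63 and 59.54 CPM in arterial and 270 and 247.1 CPM in venous barcodes of the ATV-TfR high bins. Car4 was 1385 and 1334 CPM in capillary, 465.2 and 464.2 CPM in arterial and 1334 and 1381 CPM in venous barcodes there. In the control IgG negative library, capillary and venous barcodes had 116.2 and 115.8 CPM of Slc38a5 and 921.4 and 906.4 CPM of Car4. Neither gene was higher in venous than in capillary barcodes in every library compared. Slc2a1 was higher in arterial than in capillary barcodes in every library compared, for example 2070 against 1671 CPM in ATV-TfR high pool 1.

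Whether the high minus medium change differed between the antibodies was tested as an interaction. It called 320 genes (2.3%), 4 higher in ATV-TfR (0.0288%) and 316 lower (2.28%), and 315 of the lower ones were genes higher in non-endothelial barcodes. Net1 (1.15 ± 0.27 SE, edgeR adjusted p = 0.035), Tiam1 (1.01 ± 0.25, 0.044) and Ndnf (0.9 ± 0.22, 0.045) had larger rises in ATV-TfR. Net1 went from 53.81 and 57.93 CPM to 125.7 and 136.8 CPM in ATV-TfR and from 145.7 and 111.6 CPM to 164.7 and 139.1 CPM in ATV-CD98hc. Relative to endothelial genes 0 of 411 (0%) were called in edgeR, with 5 at an unadjusted p under 0.05 (4 higher and 1 lower), and 4 with the replicate block. The count was 1171 over all genes with the replicate block, 205 without ATV-TfR pool 1, and 0 without ATV-TfR pool 2 or in barcodes without other-cell UMIs. The Tfrc difference was 0.92 ± 0.33 (SE, edgeR adjusted p = 0.2) and passed with the replicate block (0.015). That of Slc3a2 was 0.18 ± 0.29 (SE, edgeR adjusted p = 0.84).

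In the high bins themselves, 174 genes (1.25%) differed between ATV-TfR and ATV-CD98hc, 169 higher (1.22%) and 5 lower (0.036%) in ATV-TfR. Of the higher genes 163 were genes higher in non-endothelial barcodes, and 6 of 8 astrocyte markers were among them, beside summed levels of 1719 to 2342 CPM and 1429 to 1804 CPM. Beside Tfrc, Wdfy1, an endosomal adaptor of Toll-like receptor signalling, was lower by a log2 fold change of -1.26 ± 0.27 (SE, edgeR adjusted p = 0.027), at 16.09 and 14.15 CPM against 27.87 and 45.33 CPM. Relative to endothelial genes 2 of 411 (0.487%) were called, Tfrc (-1.26) and Ndnf (-0.64), while Slc3a2 is not among the 411 and was not tested there. Ndnf was 254.6 and 234.9 CPM against 399.1 and 376.8 CPM. Both calls were lost without either ATV-TfR pool. The full count depended on single libraries: 2 genes without ATV-TfR pool 1, 275 without ATV-TfR pool 2, 74 without ATV-CD98hc pool 1 and 1073 without ATV-CD98hc pool 2. No block by pool can be fitted between treatments, since each pool belongs to 1 treatment, and the sums per pool of the same antibodies called 0 of 15684 genes (0%). Relative to endothelial genes it was 10 and 88 without ATV-CD98hc pools 1 and 2.

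After control IgG, capillary cells of the low bins were compared with those of the negative bin of pool 2. The negative side is 1 library, so the spread in this comparison comes from the other groups and its calls are differences from that library. Of the genes tested 999 (7.19%) were called, 31 higher (0.223%) and 968 lower (6.97%), 964 of the lower ones being higher in non-endothelial barcodes, and 7 of 8 astrocyte markers among them. Oligodendrocyte markers were 626.5 CPM in the negative library and 39.89 and 18.16 CPM in the low bins, and microglia markers 513.2 CPM against 149.9 and 182 CPM. Choroid plexus and ependymal markers went the other way, from 210.6 CPM to 760.6 and 1643 CPM, and red blood cell markers were 4.093 CPM against 3403 CPM in low pool 1 and 0 CPM in low pool 2. For 320 of the lower genes the low bins had no UMI, among them Gpr37l1, an astrocyte receptor, at least 196-fold lower than its 190 CPM in the negative bin by the 3-UMI limit over the group. Il1r1, the interleukin 1 receptor, was 21.37 CPM in the negative library and 57.77 and 49.83 CPM in the low bins (log2 fold change 1.38, edgeR adjusted p = 0.049), and was the only one of 7 tested genes of the venous-side list called higher. The transglutaminase gene Tgm2 was 96.87 CPM against 203.6 and 165.5 CPM, and Rflnb 216 CPM against 570.8 and 400.3 CPM, both called higher. Relative to endothelial genes 1 of 411 (0.243%) was called, Gm9946 (-1.11), at 146.9 CPM against 81.15 and 75.58 CPM, and 12 with the replicate block. That call was lost without either ATV-TfR pool or without control IgG pool 1, and 6 genes were called without either ATV-CD98hc pool. In barcodes without other-cell UMIs 68 genes were called over all genes.

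Over whole pools, 0 of 15684 genes (0%) passed between ATV-TfR and control IgG, ATV-CD98hc and control IgG, or ATV-TfR and ATV-CD98hc in edgeR. At an unadjusted p under 0.05 there were 468 higher and 720 lower genes, 143 and 377, and 131 and 406. DESeq2 called 97, 2 and 22 genes. The pools mix bins in different proportions: the control IgG pools were mostly negative and low bins, the ATV pools mostly medium and high. The control pools also differ from each other in their bins: the negative library of pool 1 was not analysed here, and 1134 capillary barcodes of pool 2 are from its negative library. The astrocyte glutamate carrier Slc1a2 was 11.89 and 650 CPM in control IgG pools 1 and 2, and the haemoglobin gene Hbb-bs 2354 and 1.762 CPM. Red blood cell markers also stood apart within the low bins, at 3403 CPM in pool 1 and 0 CPM in pool 2. The source of these differences was not tested. In the positive bins alone, 616, 524 and 70 genes were called. Without control IgG pool 1 the counts were 264, 28 and 33, without control IgG pool 2 they were 57, 55 and 30, without ATV-TfR pool 1 the first was 76 and without ATV-TfR pool 2 the third was 2. Relative to endothelial genes Tfrc alone was called, at -1.34 ± 0.18 for ATV-TfR against control IgG (SE, edgeR adjusted p = 0.011; 1 of 411, 0.243%) and -1.27 ± 0.18 against ATV-CD98hc (SE, edgeR adjusted p = 0.015; 1 of 411, 0.243%). For ATV-CD98hc against control IgG, 0 of 411 (0%) were called in edgeR, with 15 at an unadjusted p under 0.05. Slc3a2, at 444.9 CPM in capillary and 210 CPM in non-endothelial barcodes, is not among the 411 and was not tested there. Astrocyte markers had median log2 fold changes of 0.08, -0.06 and 0.27 in these 3 comparisons, and the first pair rests on control pools on either side of the ATV pools: Slc1a2 was 358.7 and 249.7 CPM after ATV-TfR and 245.3 and 262.9 CPM after ATV-CD98hc.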

How the data were processed

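Counts of UMIs per gene and barcode, deposited by the authors as 1 matrix of all libraries, were made with Cell Ranger 7.1.0 on mouse build mm10 (GRCm38), per the submitters' processing notes, which also name Seurat. Capillary barcodes were selected by the stated rule with no doublet caller; the ratio to other-cell genes removes some mixed droplets, and leaving out the 5% deepest barcodes was an alternative. Counts were summed per library (bins) or per pool, libraries of at least 20 capillary barcodes entering the bin fit. Genes passing filterByExpr were tested with edgeR 4.0.16 (glmQLFit, TMM) in 1 model over all groups, with Benjamini-Hochberg adjustment at 0.05. CPM are raw counts per 1000000 UMIs of the capillary sum. Alternatives were RLE factors, DESeq2 1.42.0, no filter, a pool block, leaving out each pool, sex, purity and depth subsets. Bins of a pool share animals by the labels. Deviations of different bins of the same pool correlated at 0.03 to 0.06 in ATV-TfR over 8352 genes. In ATV-CD98hc they correlated at 0.14 (low and medium), 0.2 (low and high) and 0.92 (medium and high). The main fit does not use this pairing, so its spread for ATV-CD98hc high against medium includes differences between pools that both bins share. Pool numbers do not pair treatments.

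On simulated data for ATV-TfR high against medium (13889 genes), 72.5% of 200 genes changed by 2-fold and 99.5% of those changed by 4-fold were recovered, with 8 and 13 unchanged genes called. The changed genes were drawn from the more abundant ones, with equal numbers up and down. Simulated libraries were independent and had no shift in astrocyte RNA. Real bins share animals and differ in astrocyte RNA, so these values do not measure the errors of the reported test. Named genes were members of receptor, light chain, iron and antibody lists, up to 4 called members of each other list with the largest change (or, where none was called, up to 2 of the highest level), and the 8 highest and lowest called genes with average log2 CPM of at least 4 and the same direction in every pool. Members and lists were chosen with earlier results of these data known. The fit over endothelial-enriched genes, its named genes, Slc26a10 among them, and the comparison values of a gene called elsewhere were chosen after the values were seen. Some genes are not reported here and were left out of the lists. Python 3.11.15, R 4.3.3 and scipy 1.17.1 were used.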

Additional observations from a re-analysis of the deposited data

Results flagged for a closer look

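The change from the medium to the high bin differed between ATV-TfR and ATV-CD98hc capillary cells for 320 genes by the interaction test (edgeR, adjusted p under 0.05), which is why they are listed here. For 316 of them the change was lower in ATV-TfR, and 315 of these are genes with higher levels in non-endothelial barcodes. For the other 4 it was higher. Of these 4, Net1, a RhoA exchange factor, differed by 1.15 on the log2 scale, Tiam1, a Rac exchange factor, by 1.01, and Ndnf, a secreted factor, by 0.9, each with the larger rise in ATV-TfR mice. Summed astrocyte markers fell from 11610 to 13590 CPM to 1719 to 2342 CPM in ATV-TfR and from 2014 to 2821 CPM to 1429 to 1804 CPM in ATV-CD98hc. Apoe makes up most of the lower sums, so they do not give the fall of the other markers. Over whole pools Apoe was 2095 and 1821 CPM in ATV-TfR and 1467 and 1913 CPM in ATV-CD98hc. Slc1a2 was 358.7 and 249.7 CPM and 245.3 and 262.9 CPM there. Relative to endothelial-enriched genes the differences were not called, and with the replicate block Net1 gave 0.64 and Tiam1 0.52 (edgeR adjusted p = 0.046 for both).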

How the results depend on the processing

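Counts of called genes moved with the setting as follows, in the order ATV-TfR high against medium, ATV-CD98hc high against medium, ATV-TfR high against low, ATV-CD98hc high against low, the interaction, the high bins and control IgG low against negative, where the reported counts are 3869, 840, 2119, 4616, 320, 174 and 999. In barcodes without other-cell UMIs they were 489, 190, 31, 983, 0, 18 and 68. Over endothelial-enriched genes alone they were 10, 1, 3, 15, 0, 2 and 1. Female barcodes gave 1973, 480, 483, 2825, 186, 79 and 385. Male barcodes gave 2885 for ATV-CD98hc high against low, 26 for the high bins and 420 for control IgG. The replicate block gave 6199 for ATV-TfR high against medium and 1171 for the interaction. It was not run for the high bins, since a pool belongs to 1 treatment. Without the 5% deepest barcodes they were 2454, 574, 3 and 511 for ATV-TfR high against medium, the interaction, the high bins and control IgG. Without a filter on low counts the interaction gave 668 and the high bins 554. DESeq2 gave 651 for the interaction, libraries of at least 50 barcodes gave 71 for the high bins, and adding endothelial barcodes of no zone gave 3671 for ATV-TfR high against low.

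Leaving out 1 pool at a time gave 1364 to 5388, 637 to 883, 515 to 2179, 3229 to 4725, 0 to 384, 2 to 1073 and 811 to 1140 genes in the same order.

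Relative to endothelial-enriched genes the replicate block gave 64, 44, 21, 78, 4 and 12 genes in the same order without the high bins, leaving out the genes of the selection rule gave 5 for the high bins, and leaving out 1 pool gave 0 to 30, 0 to 2, 0 to 11, 7 to 25, 0 to 0, 0 to 88 and 0 to 6. Between whole pools (ATV-TfR against control IgG, ATV-CD98hc against control IgG, ATV-TfR against ATV-CD98hc; each 0 as reported), no filter gave 473, 197 and 243, DESeq2 97, 2 and 22, and positive bins alone 616, 524 and 70. Leaving out the control IgG negative library gave 617 and 524 for the comparisons with control IgG. The replicate number as a block, which does not pair animals of different treatments, gave 9 for the first comparison, leaving out the deepest barcodes 109 for it, female barcodes 83 for it and 76 for the third, male barcodes 53 and 2, barcodes without other-cell UMIs 10 for the third, and endothelial-enriched genes alone 1 and 1. Leaving out 1 pool gave 0 to 264, 0 to 55 and 0 to 33 genes, and was not run relative to endothelial-enriched genes.

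For the capillary share, leaving out the negative bin gave slopes of 1.02 (ATV-TfR) and 0.22 (ATV-CD98hc), and 1 pool alone gave 1.07 to 1.11 and 0.47 to 0.55, against arterial cells 1.51 to 1.55 and 0.94 to 1.01, against venous cells 0.71 to 0.91 and 0.16 to 0.28, and for control IgG -0.33 to 0.33, with p no lower than 0.083 possible. The control IgG slope was -0.47 in female and 0.46 in male barcodes. The slope against venous cells was 0.6 in male barcodes (ATV-TfR) and 0.48 after thinning (ATV-CD98hc). The replicate block changed no call of a slope.

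Of 1721 values of 83 genes and comparisons under the alternatives, 1408 kept direction and side of the threshold, 233 lost the call, 72 gained it and 8 changed sign. These 8 were Tfrc between the ATV-CD98hc and control IgG pools (0.01 without a filter, 0.23 in female barcodes, and -0.24 to 0.13 over the pools left out), Slc3a2 in the interaction (-0.01 to 0.51 over the pools left out, -0.11 in barcodes without other-cell UMIs), Fcgrt in ATV-CD98hc high against low (-0.07 in barcodes without other-cell UMIs) and Krtap28-13 in ATV-TfR high against low (-0.69 to 0.18 over the pools left out). The cause of these changes was not tested. Not run, for too few barcodes, were male barcodes and libraries of at least 50 barcodes in ATV-TfR high against low, and comparisons with an ATV negative bin, under the minimum of 20 barcodes. Depth limits most the ATV-TfR low bins, where 3 UMIs are 14.4 CPM.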

Other observations

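The sex of the animal was read from sex-linked transcripts for part of the capillary barcodes. Male cells were 37.14% of 35 and 20% of 10 sexed capillary barcodes in the ATV-TfR low bins, 26.97% and 22.99% in the medium bins and 36.46% and 38.1% in the high bins, so the low bin of pool 1 was at the level of the high bins. Among sexed non-endothelial barcodes of those libraries they were 33.76% and 43.34% in the low, 38.64% and 42.28% in the medium and 44.14% and 50.67% in the high bins. In the ATV-CD98hc low, medium and high bins male cells were between 39.4% and 45.99% of sexed capillary barcodes. Each pool holds 1 animal of each sex, so these shares describe the animals of these pools.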
